A study of Mus musculus with 23 samples.

Results

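The livers of mice given furan at 8 mg/kg were set directly against those of mice given 4 mg/kg. The 9 arrays were chosen by their labelled dose, 5 at 8 mg/kg and 4 at 4 mg/kg, out of 23 arrays in all. The other 14 arrays came from 4 animals at 1 mg/kg, 5 at 2 mg/kg and 5 controls given the corn oil vehicle alone. Every animal was a female of the B6C3F1 hybrid strain, bought at 5 to 6 weeks of age, gavaged for 21 days and sampled 4 h after the last dose, and carried no engineered allele. Liver RNA labelled with Cy5 was hybridised together with a Cy3-labelled universal mouse reference RNA on Agilent mouse arrays. Each value is a log2 ratio of liver to reference RNA for 1 animal, and each difference is the mean at 8 mg/kg minus the mean at 4 mg/kg, on the log2 scale.

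Furan is a volatile compound found in heated foods. Hepatocytes oxidise it, chiefly by the cytochrome P450 enzyme Cyp2e1, to an unsaturated dialdehyde that binds glutathione, amines and thiols of proteins. Several transcriptional programmes are classical responses to such chemistry. The transcription factor p53 answers DNA damage by inducing genes of growth arrest and cell death, NRF2 answers thiol modification by inducing antioxidant and conjugating enzymes, and AP-1 with Atf3 answers kinase signalling and general stress.

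Between 22006 and 29449 probes were well above background on each of the 9 arrays, and 0 Cy5 spots were saturated. Log ratios correlated at 0.973 to 0.985 between animals at 8 mg/kg, at 0.965 to 0.980 between animals at 4 mg/kg and at 0.962 to 0.983 between the doses. All 21 measured hepatocyte secreted protein genes were well above background on all 9 arrays, and Alb, which encodes albumin, averaged 6.82 ± 0.35 at 8 mg/kg and 6.85 ± 0.39 at 4 mg/kg (SD, n = 5 and 4). Some arrays stood apart. Pancreatic digestive enzyme transcripts, of which 8 of 30 listed were measured, averaged 2.80 above the control mean on the replicate 5 array of 8 mg/kg and 4.09 on the replicate 1 array of 4 mg/kg, and did not exceed 0.44 on the other 7. Hepatocyte secreted protein transcripts averaged 0.80 above the control mean on the replicate 3 array of 8 mg/kg, and did not exceed 0.10 on the other 8. That array lay on slide 3, which held no 4 mg/kg array. The slide 3 arrays of the other groups were high as well, at 0.717 in controls, 0.910 at 1 mg/kg and 1.112 at 2 mg/kg. No array off slide 3 exceeded 0.10, and the part of the slide was not tested. The remaining 8 arrays of the 2 doses formed a pair of 1 animal per dose on each of 4 slides. In whole liver, fewer cells of a type and less RNA per cell cannot be told apart.

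A small set of genes separated the 2 doses. Of 19898 genes tested, 41 (0.206%) differed between 8 and 4 mg/kg at a limma adjusted p under 0.05, 34 higher at 8 mg/kg (0.171%) and 7 lower (0.0352%). The named ones that rose were led by the p53 target Cdkn1a, the AP-1 gene Jun, the embryonic gene Dppa5a and the cytokine receptor gene Tnfrsf12a, and the named one with the largest fall was Bmf, a gene of the BH3-only death protein family. A mouse gene symbol was matched to 31 of them, 25 higher and 6 lower. At least a 1.5-fold change was seen for 31 of the 41, and at least a 2-fold change for 18 that rose and 2 that fell. The median difference over all genes was 0.0013. The 5 animals at 8 mg/kg did not overlap the 4 at 4 mg/kg for any of the 41. Over all genes, non-overlap held for 2.16% in the higher direction and 1.86% in the lower. The 41 kept their sign in each of the 4 slide pairs. Both properties come from the same animals that gave the calls, so neither is separate support for them. The spread in this test came from all 23 arrays. When it was estimated from the 9 arrays alone, 2 genes passed, Cdkn1a and Tnfrsf12a, and 1677 genes had an unadjusted p under 0.05 in the 23-array fit (909 higher, 768 lower). A fit blocked on slide called 68 genes (51 up, 17 down), among them 37 of the 41.

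Single animals also moved the count. It was 20 without replicate 1 at 8 mg/kg, 27 without replicate 2, 26 without replicate 3, 22 without replicate 4 and 24 without replicate 5. It was 29 without replicate 1 at 4 mg/kg, 21 without replicate 2, 21 without replicate 3 and 15 without replicate 4. In these 9 fits 13 genes passed every time, among them 10 with a symbol, namely Cdkn1a, Jun, Dppa5a, Tnfrsf12a, Ugdh, Aen, Txnrd1, Atf3, Srxn1 and Phlda3. The other 28 missed the threshold in at least 1 fit, and all 41 kept their direction and an unadjusted p under 0.05 in each. Without the 4 arrays rich in pancreatic transcripts, 2 of them at 2 mg/kg, 21 genes passed, 15 of them among the 41.

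**Figure D1:**
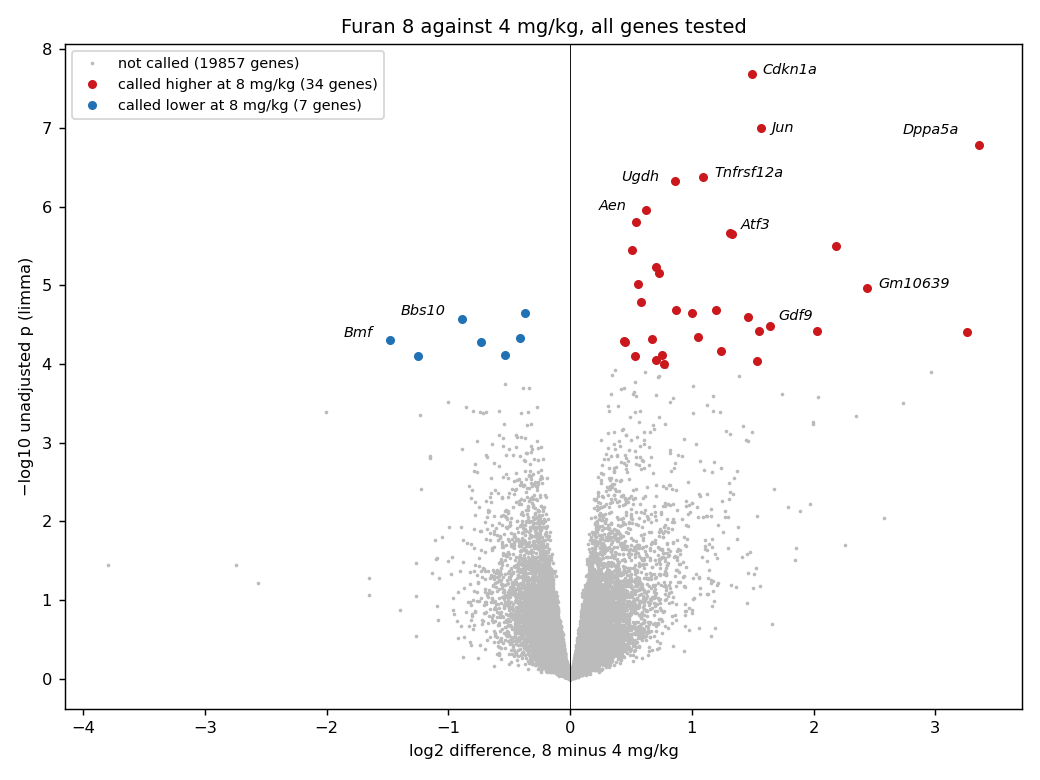
Log2 difference, 8 minus 4 mg/kg, against the −log10 unadjusted limma p for all 19898 genes tested, 1 point per gene. The 34 genes called higher (red) and 7 called lower (blue) stand above the grey genes, with Cdkn1a at the top and Dppa5a farthest to the right of the labelled ones.

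The p53 list holds genes that p53 induces and Trp53, the gene for p53 itself. Of its 29 measured genes, 7 rose at 8 mg/kg over 4 mg/kg and none fell, while 22 did not pass the limma test. The median difference of the list was 0.48, beside 0.0013 for all genes, of which 0.206% were called. This and the other lists were chosen with earlier results of these data known, so their counts and medians are not separate support. Cdkn1a, the p21 gene, whose product blocks cyclin-dependent kinases, had log2 ratios of -1.05, -1.41, -1.43, -1.37 and -1.39 at 8 mg/kg, against -2.68, -2.69, -2.97 and -2.96 at 4 mg/kg. The 2 doses were separated by over 1 log2 unit with no overlap, and replicate 1 at 8 mg/kg was the highest. The difference was 1.49 ± 0.17 (SE, 2.82-fold, limma adjusted p = 4.12e-04), and within slides it was 1.28 to 1.92. Cdkn1a passed in all 12 other processing settings, with adjusted p from 3.11e-04 to 0.0106 over these and the 9 fits without 1 animal. A second, dim Cdkn1a probe was above background on 0 of the 9 arrays and was not used.

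Aen, which encodes a nuclease induced by p53 in dying cells and was picked out after its values were seen, had ratios of 0.69, 0.60, 0.90, 0.81 and 0.52 at 8 mg/kg. At 4 mg/kg they were -0.10, 0.14, 0.03 and 0.26. The lowest animal at 8 mg/kg lay above the highest animal at 4 mg/kg, and the difference was 0.62 ± 0.09 (limma adjusted p = 0.00371). Phlda3, whose product restrains the kinase Akt, ranged from -1.98 to -1.55 at 8 mg/kg with a median of -1.82, against -2.64 to -2.41 at 4 mg/kg, a difference of 0.73 ± 0.12 (limma adjusted p = 0.0106). It missed the threshold without the arrays rich in pancreatic transcripts and without slide 3, and its adjusted p reached 0.0772 over its alternatives.

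Tnfrsf10b, the mouse receptor for the death ligand TRAIL, had ratios of -2.08, -2.15, -1.44, -2.03 and -1.87 at 8 mg/kg, against -2.90, -2.88, -3.20 and -3.44 at 4 mg/kg. It was higher in every 8 mg/kg animal, and rose by 1.19 ± 0.22 (2.29-fold, limma adjusted p = 0.0225). The call was lost without replicate 3 or 5 at 8 mg/kg or replicate 3 or 4 at 4 mg/kg and held in 5 of 12 other settings. The difference was lowest, 0.54 with an adjusted p of 0.287, in the deposited value table. Zmat3, which encodes an RNA-binding protein, rose by 0.76 ± 0.15 and Mdm2, the ubiquitin ligase that limits p53 itself, by 0.45 ± 0.09 (limma adjusted p = 0.042 and 0.0316). Among the fits without 1 animal Zmat3 passed only without replicate 5 at 8 mg/kg and Mdm2 only without replicate 3 at 8 mg/kg. Ddit4l, which encodes an inhibitor of mTOR signalling, rose by 1.54 ± 0.32 (limma adjusted p = 0.0459). It was above background on 5 of 5 arrays at 8 mg/kg and 3 of 4 at 4 mg/kg, did not pass with slide as a block (adjusted p = 0.0651), and among fits without 1 animal passed only without replicate 2 at 8 mg/kg.

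Several other genes of the p53 list lay on the same side without passing. Gdf15, a secreted stress cytokine gene, ranged from 0.95 to 1.75 at 8 mg/kg, against 0.20 to 0.77 at 4 mg/kg, a difference of 0.94 ± 0.24 (limma adjusted p = 0.149). Bax, the gene of a pore-forming death protein, ranged from -0.59 to -0.20 at 8 mg/kg, against -0.92 to -0.68 at 4 mg/kg, and differed by 0.34 ± 0.12 (limma adjusted p = 0.38, or 0.034 when blocked on slide). Trp53, the gene for p53, averaged -1.37 ± 0.14 at 8 mg/kg and -1.65 ± 0.18 at 4 mg/kg, a difference of 0.27 with a 95% interval from 0.00 to 0.55. Counted at an unadjusted p under 0.05, 18 of the 29, Trp53 among them, were higher and 1, Sesn1, was lower (-0.33 ± 0.10). Of all 19898 genes, 909 were higher and 768 lower at that threshold. The mean level of the whole list was 0.722 to 0.890 above the control mean in animals at 8 mg/kg, against 0.275 to 0.395 at 4 mg/kg and -0.162 to 0.135 in controls.

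**Figure D2:**
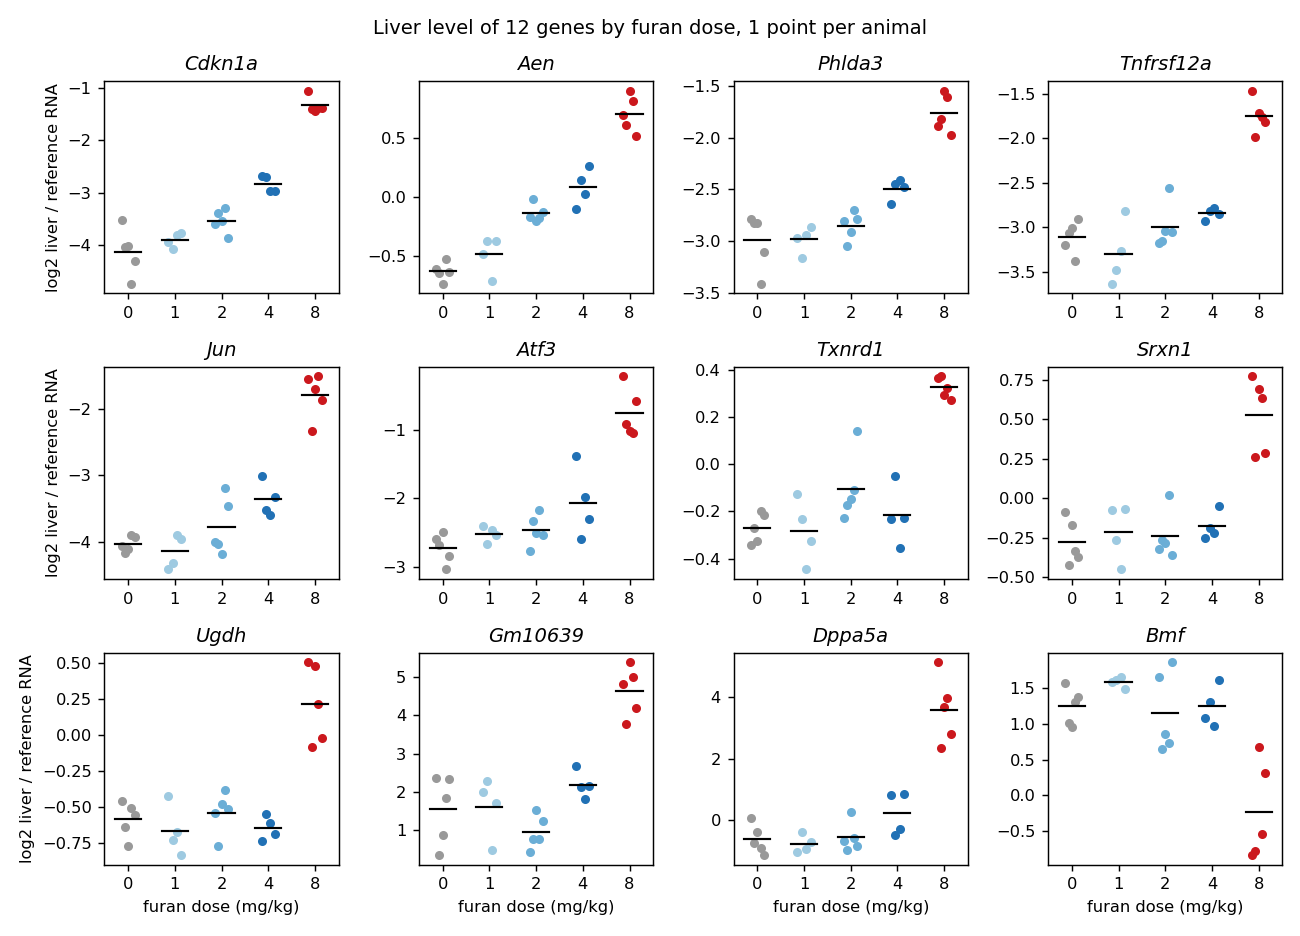
Log2 ratio of liver to reference RNA (vertical axis of each panel, own scale) of 12 genes against furan dose in mg/kg, with 1 point per animal and a line at each group mean. Cdkn1a and Aen lay higher at 4 mg/kg than in controls and higher again at 8 mg/kg, whereas Txnrd1, Srxn1, Ugdh and Bmf lay near the controls at 4 mg/kg and apart from them at 8 mg/kg.

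The step between the doses did not have the same starting point for every gene. The differences from control share the treated animals with the comparison above and are given beside it as values only. Cdkn1a was 1.29 above the control mean at 4 mg/kg (limma adjusted p = 0.00136), Aen 0.71 (adjusted p = 0.00136) and the tubulin gene Tubb4b 0.84 (adjusted p = 0.00934). These were the 3 of the 41 that passed at 4 mg/kg against control. At 4 mg/kg Txnrd1 lay 0.05 from the control mean, Srxn1 0.10, Ugdh -0.06, Bmf 0.00 and Tnfrsf12a 0.27, and none of these passed.

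Receptors and regulators of cell death moved in both directions, since of 33 genes measured 1 rose, 1 fell and 31 missed the threshold; the list median was -0.01. Tnfrsf12a, the receptor for the cytokine TWEAK, which acts on regenerating liver and progenitor cells, had ratios of -1.47, -1.99, -1.71, -1.76 and -1.82 at 8 mg/kg. At 4 mg/kg they were -2.93, -2.82, -2.78 and -2.85, a tight group below every animal at 8 mg/kg. It rose by 1.09 ± 0.15 (2.13-fold, limma adjusted p = 0.00188), passed in all 12 other settings and differed by 0.83 to 1.31 within slides. Bmf, whose BH3-only product frees the cell death machinery by binding Bcl-2 proteins, had ratios of -0.83, -0.78, 0.67, -0.54 and 0.31 at 8 mg/kg, against 1.08, 1.31, 0.97 and 1.61 at 4 mg/kg. Replicates 3 and 5 at 8 mg/kg lay nearest to the 4 mg/kg animals without reaching them, and replicate 3 is also the array high in hepatocyte transcripts and replicate 5 the one rich in pancreatic transcripts. The part of either in the result was not tested. Bmf fell by 1.48 ± 0.29 on the log2 scale (limma adjusted p = 0.0316), and among fits without 1 animal it passed only without replicate 3 or 5 at 8 mg/kg. At an unadjusted limma p under 0.05, 2 members were higher and 6 lower, beside 909 higher and 768 lower of all 19898 genes, of which 0.206% were called. Of the other members, Bik, Cflar, Casp9, Birc3 and Bid had differences of -0.56 to -0.17 with unadjusted p under 0.05, and none passed. These were picked out after their values were seen. Bax, also on the p53 list, went the other way, by 0.34 ± 0.12, and passed only when blocked on slide (limma adjusted p = 0.38 and 0.034).

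Of 21 AP-1 and immediate early genes measured, 2, Jun and Dusp6, rose, none fell and 19 missed the threshold, and the list median was 0.24. Jun, a core AP-1 subunit gene, had ratios of -1.55, -2.34, -1.70, -1.51 and -1.87 at 8 mg/kg, against -3.0, -3.52, -3.59 and -3.33 at 4 mg/kg. Replicate 2 was the lowest at 8 mg/kg and still above all 4 animals at 4 mg/kg. The difference was 1.57 ± 0.20 (2.96-fold, limma adjusted p = 0.001), with 1.13 to 2.04 within slides, and its adjusted p ran from 2.64e-04 to 0.0585 over its alternatives. Dusp6, a phosphatase gene that limits ERK signalling, was -0.32 to -0.07 at 8 mg/kg, against -1.88 to -0.67 at 4 mg/kg, and rose by 1.24 ± 0.25 (limma adjusted p = 0.04). Replicate 1 at 4 mg/kg, the array rich in pancreatic transcripts, was its highest value at that dose, the call passed only without that animal among the fits without 1 animal, and the within-slide differences were 0.41 to 1.78. Myc, a growth regulator gene, differed by 0.74 ± 0.42 (limma adjusted p = 0.673), with a 95% interval from -0.14 to 1.63. Dusp8, picked out after its values were seen, had the largest difference of the list, 1.99 ± 0.49, without passing (limma adjusted p = 0.118). It was above background on 1 of 4 arrays at 4 mg/kg. At an unadjusted limma p under 0.05, 7 members were higher and 0 lower, beside 909 and 768 of all 19898 genes, of which 0.206% were called.

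Atf3, a stress-induced repressor gene of the ATF family, was the 1 member that rose among 32 integrated stress and unfolded protein response genes, of which none fell and 31 missed the threshold. It had ratios of -0.22, -0.92, -1.02, -1.04 and -0.58 at 8 mg/kg, against -1.38, -2.59, -1.98 and -2.30 at 4 mg/kg. The groups did not overlap, although replicate 1 at 4 mg/kg came within 0.4 of the lowest animals at 8 mg/kg. The difference was 1.31 ± 0.20 (2.48-fold, limma adjusted p = 0.00496). The call held in 10 of 12 other settings, the exceptions being the 9-array fit and the authors' deposited value table (adjusted p from 7.62e-04 to 0.186 over all alternatives). The list median was 0.01, and Hspa5 and other endoplasmic reticulum chaperone genes were among those not passing. At an unadjusted limma p under 0.05, 4 members were higher and 0 lower, beside 909 and 768 of all 19898 genes, of which 0.206% were called. Fgf21, Sesn2 and Atf4, picked out after their values were seen, differed by 2.04 ± 0.46, 0.59 ± 0.17 and 0.42 ± 0.11 without passing (limma adjusted p = 0.0819, 0.215 and 0.136).

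The bases before the Jun start are shown because that gene carries a well-known pair of AP-1-like sites. In the 250 bases before the start of Jun in RefSeq's GRCm38.p6 table, capitals mark TTACCTCA and TGACATCA, beginning 164 and 45 bases before the start.
Jun (chr4:95052223-95052472, - strand): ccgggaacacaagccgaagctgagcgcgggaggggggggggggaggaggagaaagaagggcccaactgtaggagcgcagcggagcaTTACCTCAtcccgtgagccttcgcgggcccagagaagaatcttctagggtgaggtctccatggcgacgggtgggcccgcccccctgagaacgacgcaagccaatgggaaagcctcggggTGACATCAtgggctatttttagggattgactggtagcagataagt
TTACCTCA was present on either strand in 0.728% of 32851 mouse promoters of this length and TGACATCA in 2.93%. Of the 31 named genes that changed, 25 matched the promoter table, and 2 of the 25 held each motif. Jun was 1 of the 2 both times, and its match was fixed in advance because the motifs are its own known sites. The other holder was Cxcl10 for TTACCTCA and Txnrd1 for TGACATCA. The percentages count promoters, whereas the 25 genes have 34 promoters between them. The AP-1 consensus TGANTCA was present in 6.75% of all promoters and in those of 3 of the 25, Srxn1, Cxcl10 and Gstp2. The cyclic AMP response element TGACGTCA was in 1.55% of all and in 0 of the 25. A match is a description of letters and not of binding.

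Of 44 NRF2 and glutathione genes measured, 5 rose, none fell and 39 missed the threshold, and the list median was 0.19. Over all genes tested, 0.206% were called. Txnrd1, which encodes cytosolic thioredoxin reductase, had ratios of 0.36, 0.37, 0.29, 0.32 and 0.27 at 8 mg/kg. At 4 mg/kg they were -0.23, -0.05, -0.35 and -0.23. The animals at 8 mg/kg lay within about 0.1 of each other and above every animal at 4 mg/kg, a difference of 0.54 ± 0.08 (1.46-fold, limma adjusted p = 0.00442, and 0.0772 over the 9 arrays alone). Srxn1, the gene of sulfiredoxin, which repairs oxidised peroxiredoxins, had ratios of 0.77, 0.26, 0.69, 0.64 and 0.29 at 8 mg/kg, against -0.25, -0.18, -0.22 and -0.04 at 4 mg/kg. Its rise of 0.70 ± 0.12 (limma adjusted p = 0.00967) was 0.45 to 0.99 within slides. Ugdh, which encodes the enzyme that makes the sugar donor of glucuronidation, had ratios of 0.50, -0.08, 0.48, 0.21 and -0.02 at 8 mg/kg, against -0.73, -0.54, -0.61 and -0.69 at 4 mg/kg. It rose by 0.86 ± 0.12 (1.82-fold, limma adjusted p = 0.00188), and replicates 2 and 5 were its lowest animals at 8 mg/kg.

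The bases before the Srxn1 and Txnrd1 starts are shown because these genes are textbook NRF2 targets. In the GRCm38.p6 promoters below, capitals mark TGAGTCA at 102 and 45 bases before the Srxn1 start, and GCTTTGTCA, the reverse complement of an antioxidant response element core TGACNNNGC, at 92 bases before 1 of the Txnrd1 starts. TGAGTCA is a match to the AP-1 consensus, and the Srxn1 promoter held no match to TGACNNNGC.
Srxn1 (chr2:152105274-152105523, + strand): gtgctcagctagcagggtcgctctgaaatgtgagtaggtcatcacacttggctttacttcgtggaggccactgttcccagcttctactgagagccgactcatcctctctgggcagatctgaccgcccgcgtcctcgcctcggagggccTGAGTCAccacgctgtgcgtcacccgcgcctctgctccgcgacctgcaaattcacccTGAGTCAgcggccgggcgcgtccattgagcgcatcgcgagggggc
Txnrd1 (chr10:82858956-82859205, + strand): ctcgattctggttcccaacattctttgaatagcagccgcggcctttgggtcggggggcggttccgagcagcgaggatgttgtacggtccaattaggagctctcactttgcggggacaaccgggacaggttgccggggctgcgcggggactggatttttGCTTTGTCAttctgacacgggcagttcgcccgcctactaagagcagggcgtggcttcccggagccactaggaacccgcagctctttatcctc
The core TGACNNNGC was found in 10.2% of all promoters, and in those of 6 of the 25 genes matched, of which Ptrh2 and Shld1 fell and Txnrd1, Ugdh, Ddit4l and Cxcl10 rose. A p53 half-site was found in 7.13% of all promoters and in those of 6 of the 25, of which Cdkn1a, Mdm2, Aen and Ddit4l rose and Bmf and Ptrh2 fell. The 25 genes have 34 promoters in the table, of which 6 held each of these motifs, and a gene with several starts had more windows in which to match.

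Cbr3, a carbonyl reductase gene, had ratios of -0.77, -2.0, 0.28, -0.74 and -1.39 at 8 mg/kg, against -2.11, -2.67, -2.46 and -2.65 at 4 mg/kg. Animals at 8 mg/kg spread over more than 2 log2 units, and the lowest, replicate 2, came within 0.11 of the highest animal at 4 mg/kg. The rise of 1.55 ± 0.30 (limma adjusted p = 0.0303) was lost without replicate 1 or 4 at 8 mg/kg or replicate 2, 3 or 4 at 4 mg/kg. It held in 4 of 12 other settings, with an adjusted p up to 0.335, in the 9-array fit. Gstp2, a pi-class glutathione transferase gene, rose by 0.77 ± 0.16 (limma adjusted p = 0.049), and did not pass in any fit without 1 animal. Its near-identical neighbour Gstp1, picked out after its values were seen, was 1.93 to 2.10 at 8 mg/kg and 1.06 to 1.5 at 4 mg/kg and differed by 0.71 without passing, and probes of the pair may share signal.

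Several NRF2 genes had large differences without passing the test. Hmox1, the heme oxygenase gene, had ratios of 0.43, -1.21, -0.53, -0.98 and -0.76 at 8 mg/kg, against -1.49, -1.95, -1.66 and -1.85 at 4 mg/kg, a difference of 1.13 ± 0.26 (limma adjusted p = 0.0949). Gclc, which encodes the catalytic subunit of the rate-limiting enzyme of glutathione synthesis, was 3.42 to 3.91 at 8 mg/kg and 2.62 to 3.09 at 4 mg/kg. It differed by 0.73 ± 0.16 (limma adjusted p = 0.0595, or 0.0225 when blocked on slide). Its partner Gclm, the modifier subunit, differed by 0.14, with a 95% interval from -0.11 to 0.39. Nqo1, the quinone reductase gene, differed by 0.50 ± 0.17 (limma adjusted p = 0.334), Nfe2l2, the gene for NRF2, by 0.53 ± 0.13 (0.096), and Keap1, the gene for its inhibitor, by 0.14 ± 0.09 (0.698). Gclm, Nfe2l2 and Keap1 were picked out after their values were seen. At an unadjusted p under 0.05, 17 of 44 members were higher and 0 lower, beside 909 higher and 768 lower of all 19898 genes. The mean level of the list was 0.210 to 0.549 above the control mean at 8 mg/kg, against -0.081 to 0.155 at 4 mg/kg and -0.115 to 0.046 in controls.

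Enzymes that oxidise furan and process its conjugates gave 0 calls among 27 measured, where 0.206% of all genes were called. At an unadjusted p under 0.05, 8 were higher and 2 lower, beside 909 and 768 of all 19898 genes. With slide as a block 4 higher and 0 lower were past the limma threshold. Among these, Gsta1 and Gclc are also on the NRF2 list and Ephx1 is also on the p53 list. The counts are therefore not separate from those of the NRF2 and p53 lists. Cyp2e1 averaged 6.94 ± 0.46 at 8 mg/kg and 6.83 ± 0.16 at 4 mg/kg, a difference of 0.11 with a 95% interval from -0.49 to 0.70. Among animals at 8 and 4 mg/kg, replicate 3 at 8 mg/kg, on slide 3, had the highest Cyp2e1 ratio, 7.73. The slide 3 arrays of controls, 1 mg/kg and 2 mg/kg had 8.06, 7.91 and 8.03. With slide as a block the Cyp2e1 difference was -0.10. Ephx1, which encodes microsomal epoxide hydrolase, was 2.75 to 3.36 at 8 mg/kg and 2.47 to 2.63 at 4 mg/kg, and its difference of 0.54 ± 0.12 did not pass (limma adjusted p = 0.0811, or 0.0488 when blocked on slide).

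**Figure D3:**
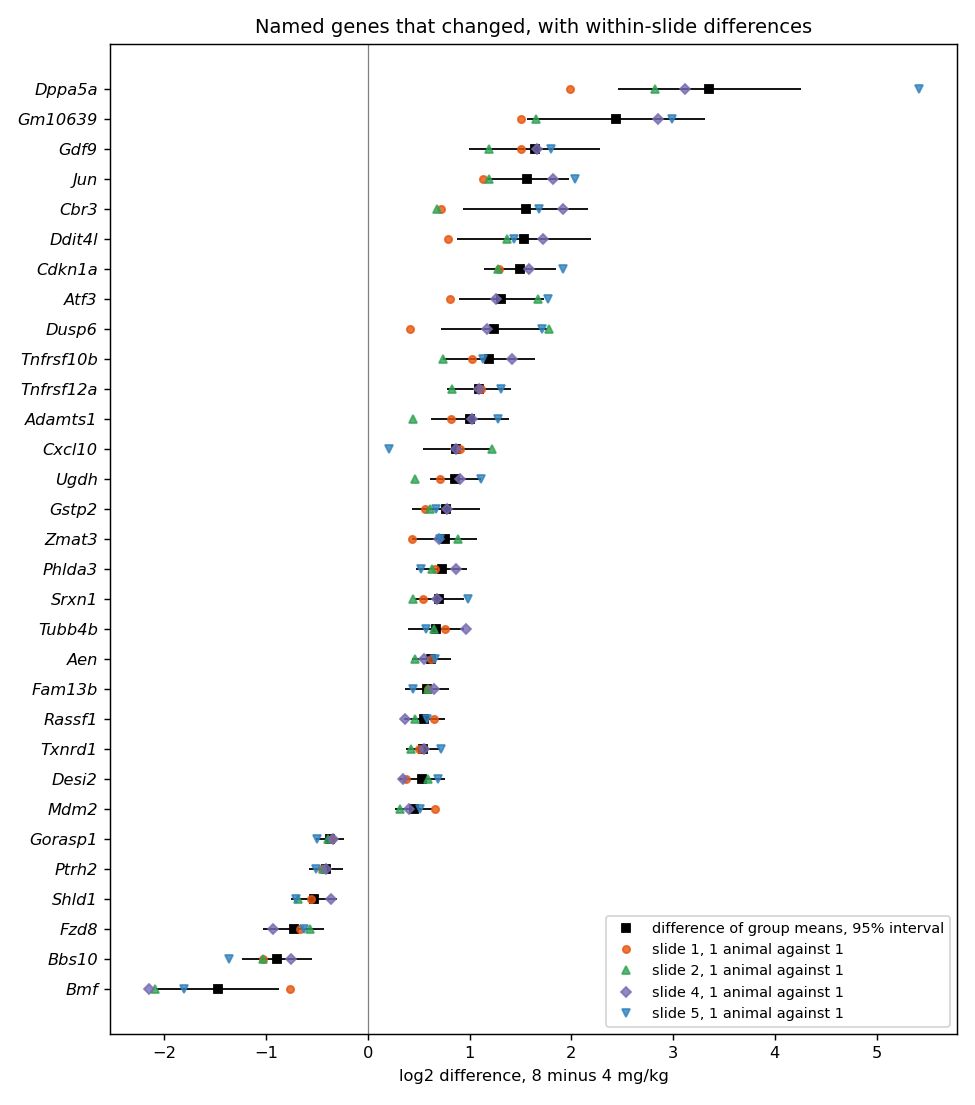
Log2 difference, 8 minus 4 mg/kg, of the 31 named genes that passed the test: black squares are differences of group means with 95% intervals, and coloured symbols are the differences of 1 animal against 1 on each of slides 1, 2, 4 and 5. Every symbol lies on the same side of 0 as its square, with Dppa5a spread from 1.98 to 5.42 and Cxcl10 down to 0.21.

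The 3 largest rises among called genes, those of Dppa5a, Gm10639 and a probe without a gene name, were on chromosome 9. Dppa5a and Gm10639 lie in the stretch that holds the alpha-class glutathione transferases, enzymes that join glutathione to reactive aldehydes and epoxides. Gm10639, annotated among these transferases, had ratios of 4.82, 3.78, 5.37, 5.00 and 4.18 at 8 mg/kg, against 2.67, 2.12, 1.82 and 2.15 at 4 mg/kg. It rose by 2.44 ± 0.42 (5.42-fold, limma adjusted p = 0.0144), and a second probe of the gene differed by 1.05. The call was lost without replicate 2, 3 or 4 at 4 mg/kg, without the arrays rich in pancreatic transcripts, in the 9-array fit and with the mean of all probes of the gene. With that mean the adjusted p reached its highest, 0.0869. A probe placed by the array's annotation at chr9:78107225-78118850 of mouse build mm9, with no gene name in the files, had ratios of 4.51, 3.48, 5.22, 4.70 and 4.00 at 8 mg/kg, against 2.23, 1.02, 0.40 and 0.86 at 4 mg/kg. It rose by 3.26 ± 0.62 (limma adjusted p = 0.0303) and, among fits without 1 animal, passed in 2, those without replicate 2 at 8 mg/kg or replicate 1 at 4 mg/kg.

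Gsta1 had ratios of 4.29, 3.59, 5.09, 4.74 and 3.91 at 8 mg/kg, against 2.38, 1.25, 0.78 and 1.03 at 4 mg/kg. The groups were over 1 log2 unit apart, and the difference was 2.96 ± 0.63, 7.8-fold, with a 95% interval from 1.65 to 4.27, but the limma adjusted p was 0.0565. With slide as a block it was 0.0356. Control animals spread from -1.51 to 1.41 for this gene. Gsta2 averaged 6.11 ± 0.56 at 8 mg/kg and 4.77 ± 0.87 at 4 mg/kg and differed by 1.34 ± 0.42 (limma adjusted p = 0.294), and Gsta4, the member at the other edge of the cluster, by -0.07 ± 0.09 (0.895). Gsta2 and Gsta4 were picked out after their values were seen.

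Dppa5a, a gene of early embryonic cells, lies beside Gsta2 in the RefSeq order. It had ratios of 5.12, 2.33, 3.67, 3.96 and 2.80 at 8 mg/kg, against 0.82, -0.49, -0.29 and 0.85 at 4 mg/kg. Its Cy5 signal exceeded background clearly on 5 of 5 arrays at 8 mg/kg, on 1 of 4 at 4 mg/kg and on 0 of 5 control arrays. The rise was 3.36 ± 0.43 (10.2-fold, limma adjusted p = 0.00109), its size rests on dim values at 4 mg/kg, and over its alternatives it ran from 1.43 to 3.75. The call was lost in the 9-array fit, after normexp correction of the median signals and in the deposited value table (adjusted p up to 0.12). Outside the cluster, the flanking genes Fbxo9, Cilk1, Cgas, Mto1 and Eef1a1, picked for their position, differed by -0.20 to 0.13 and none passed. Gsta1, Gm3776 and Gm10639 are near-identical copies, and the pseudogenes Dppa5b and Dppa5c resemble Dppa5a, so that the attribution of signal to any 1 of them is uncertain.

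The likeness of the copies can be seen in the 250 bases before the starts of Gsta1 and Gm10639 (GRCm38.p6). Over 237 aligned columns 232 were identical (97.9%), and capitals mark the letters that differ or are missing in the other gene.
Gsta1 (chr9:78230419-78230668, + strand): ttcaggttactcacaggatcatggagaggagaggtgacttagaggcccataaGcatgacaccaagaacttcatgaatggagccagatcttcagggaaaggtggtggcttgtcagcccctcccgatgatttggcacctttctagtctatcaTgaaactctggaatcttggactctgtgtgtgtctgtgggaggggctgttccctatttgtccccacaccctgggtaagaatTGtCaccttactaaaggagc
Gm10639 (chr9:78289678-78289927, + strand): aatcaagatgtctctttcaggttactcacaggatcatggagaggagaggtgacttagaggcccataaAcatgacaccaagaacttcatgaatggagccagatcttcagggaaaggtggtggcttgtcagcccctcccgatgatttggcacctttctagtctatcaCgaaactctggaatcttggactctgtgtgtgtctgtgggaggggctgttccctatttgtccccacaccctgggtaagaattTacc

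**Figure D4:**
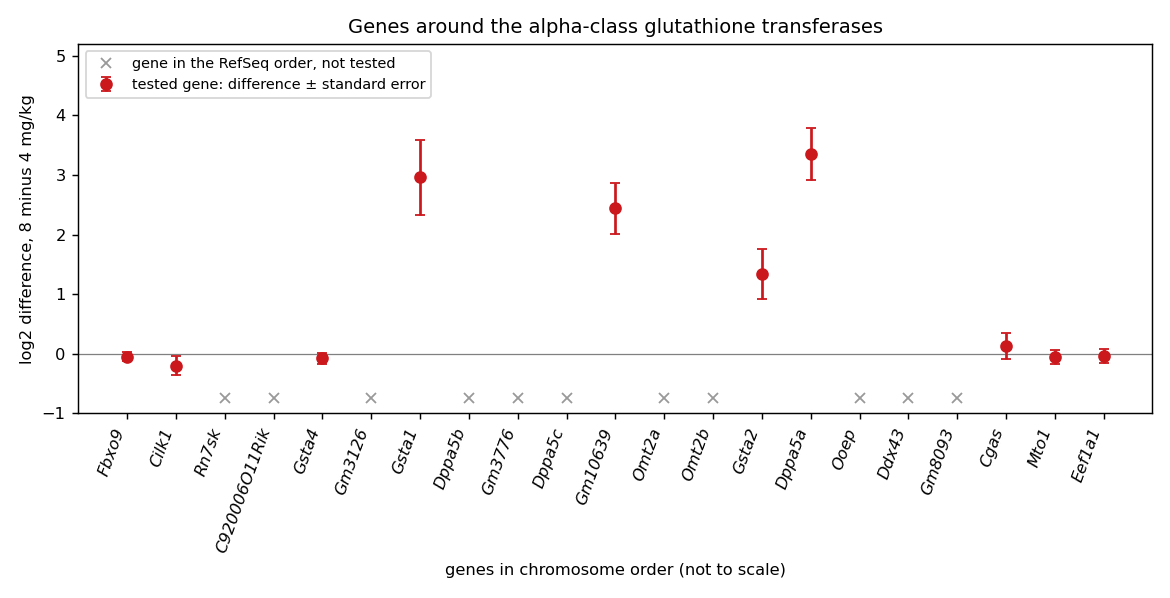
Log2 difference, 8 minus 4 mg/kg, with its standard error, for genes in RefSeq order along chromosome 9 around the alpha-class glutathione transferases (order only, not to scale); grey crosses are genes that were not tested. Gsta1, Gm10639, Gsta2 and Dppa5a lie between 1.34 and 3.36, and the flanking genes and Gsta4 between -0.20 and 0.13.

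Among 12 tubulin genes, which encode the subunits of microtubules, 1 rose, none fell and 11 missed the threshold, with a list median of 0.28. Over all genes tested, 0.206% were called. Tubb4b had ratios of -0.05, 0.23, -0.11, 0.58 and 0.14 at 8 mg/kg, against -0.62, -0.42, -0.63 and -0.39 at 4 mg/kg. The groups did not overlap, and Tubb4b rose by 0.67 ± 0.13 (limma adjusted p = 0.0316). It passed only without replicate 1 or 3 at 8 mg/kg among the fits without 1 animal, and its adjusted p reached 0.248. Tubb2a was 1.95 to 2.48 at 8 mg/kg and 0.26 to 1.30 at 4 mg/kg, and its difference of 1.28 ± 0.32 did not pass (limma adjusted p = 0.137).

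Among 22 inflammatory cytokine and chemokine genes 1 rose, none fell and 21 missed the threshold, with a median of 0.27. Cxcl10, a ligand of the lymphocyte receptor Cxcr3, had ratios of 1.18, 1.66, 1.83, 1.40 and 1.69 at 8 mg/kg, against 0.79, 0.43, 0.97 and 0.53 at 4 mg/kg. It rose by 0.87 ± 0.16 (1.83-fold, limma adjusted p = 0.0225), with within-slide differences from 0.21 to 1.22. The call was lost without replicate 2, 3 or 5 at 8 mg/kg or replicate 2 or 4 at 4 mg/kg. It held in 7 of 12 other settings, with an adjusted p up to 0.144, in the 9-array fit. Markers of T and NK cells gave 0 limma calls of 11, and those of B and plasma cells 0 of 7. Neutrophil markers gave 0 of 8, and those of Kupffer cells and macrophages 0 of 21. None of these markers had an unadjusted p under 0.05 or was called with slide as a block. Of all 19898 genes, 0.206% were called and 1677 had an unadjusted limma p under 0.05. With so few calls, 0 in a list of this size does not show that these cells were unchanged.

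Several genes outside these groups rose. Gdf9, a growth factor gene best known from oocytes, had ratios of 2.74, 2.10, 2.61, 1.5 and 2.11 at 8 mg/kg, against 0.61, 0.91, 0.93 and -0.17 at 4 mg/kg. The 2 ranges were separate, and the rise was 1.64 ± 0.31 (3.12-fold, limma adjusted p = 0.0284). Among fits without 1 animal it passed in 3, those without replicate 4 at 8 mg/kg or replicate 2 or 3 at 4 mg/kg. Adamts1, which encodes a secreted matrix protease, was -1.61 to -0.51 at 8 mg/kg and -2.10 to -1.82 at 4 mg/kg and rose by 1.00 ± 0.18 (limma adjusted p = 0.0225). It passed in 3 of the 9 fits without 1 animal, those without replicate 2 or 5 at 8 mg/kg or replicate 1 at 4 mg/kg.

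Rassf1, a tumour suppressor gene of the Ras association family, rose by 0.56 ± 0.10, Fam13b by 0.58 ± 0.10 and Desi2 by 0.53 ± 0.11 (limma adjusted p = 0.0139, 0.0202 and 0.042). These were picked out after their values were seen, to complete the account of the 25 rises. Rassf1 was lost without replicate 1 at 4 mg/kg. Fam13b was lost without replicate 1 or 2 at 8 mg/kg or replicate 1 or 4 at 4 mg/kg. Desi2 did not pass in any fit without 1 animal nor with slide as a block (adjusted p = 0.0549).

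Of the 10 called probes without a symbol, 9 rose and 1 fell. AK136555 was well above background on 5 of 5 arrays at 8 mg/kg, on 0 of 4 at 4 mg/kg and on 0 of 5 control arrays, and was at least 2.39-fold higher at 8 mg/kg (limma adjusted p = 0.00622). This bound sets the mean Cy5 signal at 8 mg/kg against the lowest signal well above background on the dim arrays, in the main setting. The fitted log2 difference ran from 0.76 in the deposited value table to 2.63 with median centring. BE862015 had ratios of 3.73, 2.91, 3.12, 2.94 and 2.91 at 8 mg/kg, against 1.85, 1.87, 2.01 and 1.44 at 4 mg/kg, a rise of 1.33 ± 0.20 (limma adjusted p = 0.00496). Both, and NM_001025387, passed in all 9 fits without 1 animal and were lost in the 9-array fit (adjusted p from 0.0585 to 0.14). XM_001478202, the one that fell, was above background on 3 of 5 arrays at 8 mg/kg and 3 of 4 at 4 mg/kg, fell by 1.25 on the log2 scale and was lost with slide as a block (adjusted p = 0.0596).

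The named falls at 8 mg/kg against 4 mg/kg were few and, apart from Bmf, under 2-fold. Bbs10, which encodes a chaperonin-like protein of the Bardet-Biedl syndrome group, had ratios of -0.68, -0.27, 0.44, -0.07 and -0.29 at 8 mg/kg, against 0.73, 0.76, 0.69 and 0.68 at 4 mg/kg. Replicate 3 at 8 mg/kg was the nearest to the 4 mg/kg animals, and the fall was by 0.89 ± 0.16 (limma adjusted p = 0.0239). Among fits without 1 animal it passed in 2, those without replicate 3 or 4 at 8 mg/kg. A second Bbs10 probe differed by -0.46. Fzd8, a Wnt receptor gene, was 2.08 to 2.44 at 8 mg/kg and 2.65 to 3.25 at 4 mg/kg, and fell by 0.73 ± 0.14 (limma adjusted p = 0.0316). It passed only without replicate 5 at 8 mg/kg or replicate 2 at 4 mg/kg.

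Smaller falls completed the named set. Shld1, a subunit gene of the shieldin complex in DNA break repair, fell by 0.53 ± 0.11, Ptrh2, a mitochondrial peptidyl-tRNA hydrolase gene, by 0.41 ± 0.08, and Gorasp1, a Golgi stacking protein gene, by 0.37 ± 0.07 (limma adjusted p = 0.042, 0.0316 and 0.0225). Shld1 and Ptrh2 passed only without replicate 3 at 8 mg/kg among the fits without 1 animal. Gorasp1 passed in 3 of these fits, those without replicate 3 or 4 at 8 mg/kg or replicate 1 at 4 mg/kg. A second Gorasp1 probe, above background on 5 of 5 arrays at 8 mg/kg and 4 of 4 at 4 mg/kg, differed by -0.14. The Gorasp1 call held in 4 of 12 other settings and was lost with the mean of all probes of the gene. All 5 animals at 8 mg/kg lay below all 4 at 4 mg/kg for each of the 3 genes.

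The remaining lists gave 0 limma calls. In all, 36 lists with 967 entries were looked up and 838 entries were measured, and 29 of the 36 lists had 0 members called. Of all 19898 genes 0.206% were called, so 0 calls in a list does not show absence of change. At an unadjusted limma p under 0.05, 909 of all genes were higher and 768 lower. Heat shock chaperones, 23 measured, had 5 higher and 0 lower at an unadjusted p under 0.05, and Hspa1a, an inducible chaperone gene, was -1.05 to -0.03 at 8 mg/kg and -2.06 to -1.43 at 4 mg/kg. It differed by 1.17 ± 0.28 (limma adjusted p = 0.096, or 0.0488 when blocked on slide), and was well above background on 5 of 5 arrays at 8 mg/kg and 1 of 4 at 4 mg/kg. Ribosome biogenesis factors, 30 measured, had 9 higher and 1 lower at an unadjusted p under 0.05, with a median of 0.14. Their mean level was 0.219 to 0.347 above the control mean at 8 mg/kg, against 0.086 to 0.203 at 4 mg/kg and -0.063 to 0.079 in controls. With slide as a block 1 of these passed, Nob1 (adjusted p = 0.0488), picked out after its values were seen.

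Cell cycle genes gave 0 calls of 40, and 1 was called higher with slide as a block. At an unadjusted p under 0.05, 5 were higher and 1 lower, beside 909 and 768 of all 19898 genes. Mki67, the proliferation marker gene, was -5.40 to -4.56 at 8 mg/kg and -5.60 to -4.91 at 4 mg/kg, overlapping ranges, and differed by 0.38 ± 0.27 (95% interval -0.17 to 0.94). Ccnd1, the cyclin D1 gene, averaged 0.35 ± 0.25 at 8 mg/kg and 0.21 ± 0.14 at 4 mg/kg, a difference of 0.14 with an interval from -0.45 to 0.74. Afp, the fetal albumin-like gene of the oncofetal list, had ratios of -0.11, -0.25, 1.28, 0.60 and 0.46 at 8 mg/kg, against 0.08, -1.05, -1.48 and -1.52 at 4 mg/kg. These groups overlapped through replicate 1 at 4 mg/kg, and the difference of 1.39 ± 0.30 had a limma adjusted p of 0.0595.

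Lists of liver metabolism likewise had no member called over the 23 arrays without a slide term, but single members differed widely. Differences ran from -2.75 to 0.93 for CAR, PXR and AhR targets, where 1 was higher and 2 lower at an unadjusted limma p under 0.05. They ran from -1.1 to 0.37 for fatty acid synthesis (0 higher, 1 lower), and from -0.20 to 2.04 for PPARA targets and fatty acid oxidation (1 higher, 0 lower). Among 25 periportal hepatocyte genes measured, Arg1 and Ass1, of the urea cycle, differed by 0.05 ± 0.38 and -0.03 ± 0.16. Among 23 pericentral genes, Glul, which encodes glutamine synthetase, differed by -0.40 ± 0.14 (limma adjusted p = 0.383). It passed the limma threshold when blocked on slide (adjusted p = 0.0125) and when slide 3 was left out, with within-slide differences from -0.54 to -0.39. The fatty acid synthase gene Fasn differed by -0.21 ± 0.33, and Cyp7a1, of bile acid synthesis, by 0.17 ± 0.46. With slide as a block none of these but Glul passed, and the median standard error over all genes was 0.156.

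**Figure D5:**
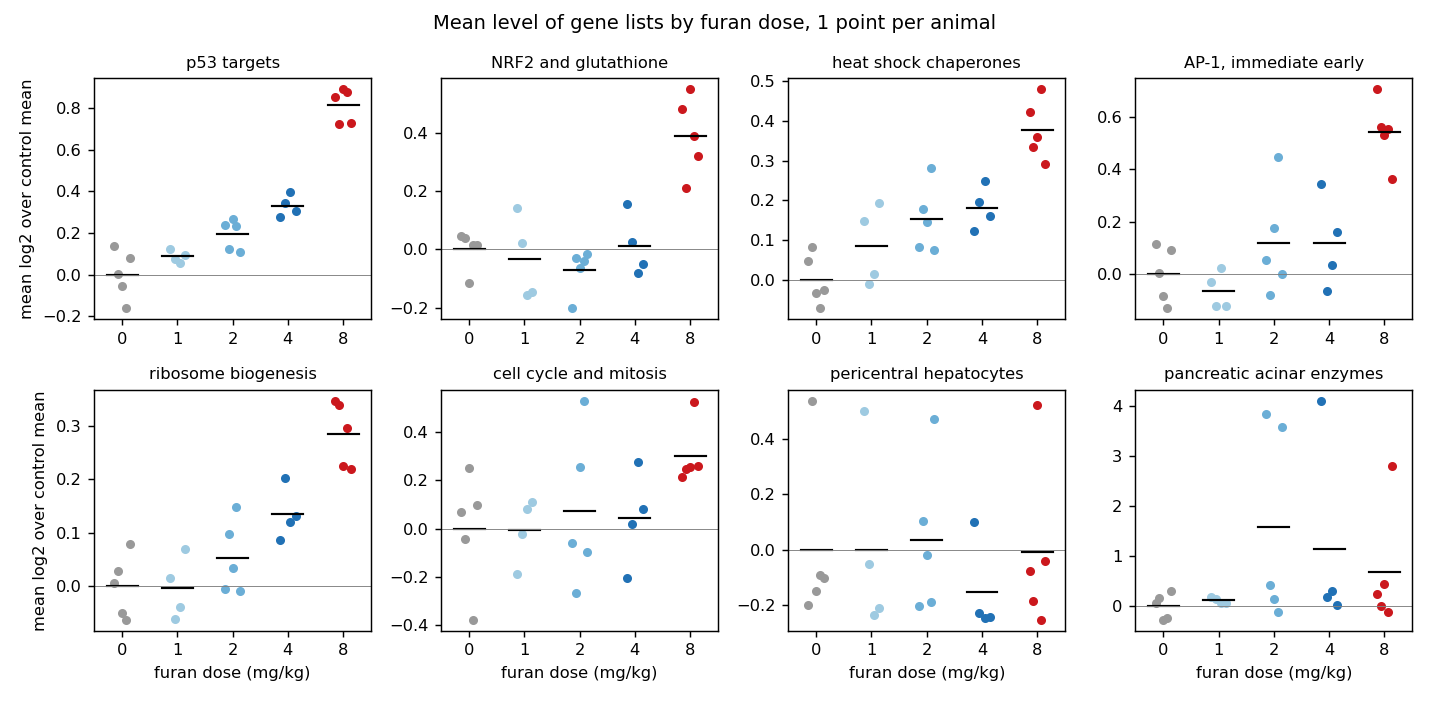
Mean log2 level of 8 gene lists over the control mean, by furan dose in mg/kg, with 1 point per animal and a line at each group mean, each panel on its own scale. The p53 list separates the animals at 8 mg/kg (0.722 to 0.890) from those at 4 mg/kg (0.275 to 0.395), and the pancreatic panel shows the arrays at 2.80 (8 mg/kg) and 4.09 (4 mg/kg) apart from their groups. The lists were chosen with earlier results of these data known.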

How the data were processed

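The members and lists were chosen with earlier results of these data known. Per the file headers, the arrays were read with Agilent Feature Extraction 10.7.3.1, and the processed signal is an intensity after background subtraction and dye normalisation by that software. The deposited value table holds linear Cy5 over Cy3 ratios, and the step that made it is not given in the sources used here. The deposited marks of 0 or 1 (unit: other) give saturation, outliers and signal above background, per the file headers.

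Log2 processed Cy5 over Cy3 was normalised by loess within each array (span 0.3, 4 iterations), with no dye swap in the design. Probes well above background in Cy5 on at least 4 arrays of a group were kept (25574 of 55681), and a gene is its brightest probe. Systematic names matched 20018 symbols of a GRCm38.p6 gene table, and 6972 of 19898 tested genes kept another name. limma 3.58.1 in R 4.3.3 fitted group over 23 arrays (18 residual degrees of freedom), two-sided, with Benjamini-Hochberg adjustment over all genes. The contrast took means from the 9 arrays only. Replicate numbers did not pair animals (correlations of deviations -0.153 to 0.372), and replicates 2 and 4 of the 2 doses also shared a slide. Pairs on the same slide correlated at 0.133 to 0.372. Array number limits the precision. The fit was tested on simulated data.

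The named genes were the 14 largest rises and all 6 falls among called genes with a symbol, up to 5 called members per list (the first 2 measured of a list with none called), and a fixed set of stress and liver genes, of which Hspa1b was not measured. Other genes are said to be picked out after their values were seen. Alternatives were the 9 arrays alone, slide or replicate number as a block, normexp, median centring, the value table, probe filters, the mean of a gene's probes, and leaving out arrays.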

Additional observations from a re-analysis of the deposited data

Results flagged for a closer look

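In groups of 4 or 5 animals, some values lay far from the rest of their dose group by Dixon's test, which flags about 1 group in 20 by chance and was run on many genes and lists here. At 8 mg/kg, replicate 1 was apart for Cdkn1a (-1.05, the others -1.43 to -1.37), for the lipid droplet gene Plin4 (-0.51) and for the mean level of the integrated stress list (0.24 above the control mean). Replicate 3 at 8 mg/kg, the slide 3 array, was apart for Ptrh2 (-0.10), Cyp2b9 (11.2), Cyp2e1 (7.73), Gstp2 (3.09) and Trp53 (-1.62), and for the mean levels of the Kupffer cell (0.27), adipose (0.59) and pericentral hepatocyte (0.52) lists. The slide 3 arrays of controls, 1 mg/kg and 2 mg/kg were also high for Cyp2e1 (8.06, 7.91 and 8.03) and the pericentral list (0.535, 0.498 and 0.470). Replicate 4 at 8 mg/kg was apart for the cell cycle list (0.53), and replicate 5 for the pancreatic protease gene Ctrl (2.92) and the pancreatic list (2.80).

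At 4 mg/kg, replicate 1 was apart for the muscle filament gene Des (-0.64), for Mdm2 (-1.18, the others -0.84 to -0.80), and for the pancreatic (4.09) and pericentral hepatocyte (0.10) lists. Replicate 2 was apart for the proteasome gene Psma1 (-0.058), and replicate 3 for the tubulin (0.10) and DNA repair (0.20) lists.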

How the results depend on the processing

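Across the settings run, including the 23 fits that left out 1 array, the 41 genes that could be measured kept their direction, and each had an unadjusted p under 0.05. The counts depended on the setting. Fitted over the 9 arrays only, 2 genes were called, 2 higher and 0 lower, and 2 of them at least 1.5-fold; the fit then had 7 residual degrees of freedom in place of 18. With slide as a block 68 were called and 17 were lower. With the replicate block 25 were called and 2 were lower, although the numbers do not pair the animals. Of 4 animals at 8 mg/kg, 2 correlated best with their own number, and replicates 2 and 4 of the 2 doses also shared a slide. The deposited value table gave 26 called and 2 lower. Only 19 of these were among the 41, and 22 of the 41 were lost there, Srxn1, Atf3 and Dppa5a among them. Normexp on the median signals and median centring each left 2 lower, of 37 and 29 called, and each shared 27 calls with the 41. The share of calls that were higher was 82.9% in the main fit, against 94.6% after normexp, 93.1% after median centring and 92.3% in the value table. With no filter on dim probes, over 37163 genes, 16 were called, 16 higher and 0 lower, 13 at least 1.5-fold. Without the arrays rich in pancreatic transcripts 21 were called, 20 higher and 1 lower, 19 at least 1.5-fold. Leaving out 1 of the 23 arrays gave 15 to 55 called, 15 to 46 higher, 0 to 9 lower and 11 to 39 at least 1.5-fold. Without slide 3 there were 32 calls, 24 of them among the 41. With slide as a block as well there were 42, 27 of them among the 41. That last setting was added after seeing the data, as was leaving out the arrays of the other groups. The cause of these differences was not tested. Spots under background carry no ordered value, which limits Dppa5a, Ddit4l and AK136555.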
